A study of Mus musculus with 4 samples.

Results

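The genes described here are 9 components of the phosphoinositide 3-kinase (PI3K) pathway: the phosphatase genes Inpp4b, Inpp4a and Inpp5d, the kinase subunit genes Pik3cd, Pik3ca and Pik3r1, the inhibitor gene Pik3ip1, and the downstream kinase genes Akt1 and Akt2. They were picked by symbol from the 26334 rows of the deposited expression table, with the fall of Inpp4b between the groups already known. All 9 were found, and all 9 were among the 11882 rows that reached 1 FPKM (fragments per kilobase of transcript, scaled to library size) in at least 2 libraries and were tested. Naive CD4+ T cells of mouse spleen were cultured for 5 days toward the T helper 1 (Th1) fate, the branch that makes interferon-gamma. Of the 4 libraries, 2 came from cells given IL-16 (interleukin-16), a cytokine that binds CD4, and 2 from cells given the vehicle PBS, and polyadenylated RNA was sequenced in bulk. The labels used here give no mouse strain, age, sex or cytokine dose. They also do not say whether replicates came from different animals, so p-values and intervals measure only how far these 4 libraries scatter, and that scatter may be technical.

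PI3K adds a phosphate to the 3-position of a membrane inositol lipid and makes PIP3, which recruits Akt and other proteins with lipid-binding domains to the membrane. In lymphocytes, receptor signals act mainly through the delta catalytic subunit, held by a regulatory subunit. SHIP-1 removes the 5-phosphate of PIP3 and leaves phosphatidylinositol 3,4-bisphosphate, and the INPP4 enzymes remove the 4-phosphate of that lipid. Active Akt holds FOXO transcription factors out of the nucleus, and in T cells FOXO1 drives genes of quiescence and lymph node homing.

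The labels do not all name the same cell: the titles say Th1 cells and the cell type field says peritoneal macrophage. All 4 libraries carried T cell transcripts. Over 10 T cell markers the summed level was 1998 and 2119.5 FPKM with IL-16, against 1796 and 1885 FPKM with PBS. Over 10 macrophage markers it was 5.16 and 6.41 FPKM with IL-16, against 4.88 and 5.56 FPKM with PBS. The macrophage markers Csf1r and Adgre1 did not exceed 0.135 and 0.117 FPKM in any library, and Fcgr1 was listed at 0 in all 4. The summed level of 5 B cell markers was lower with IL-16 without overlap, as that of Inpp4b was, at 1.71 and 2.11 FPKM with IL-16 against 3.13 and 4.09 FPKM with PBS, and its part in the results was not tested. Median marker levels did not exceed 4.99 FPKM for CD8 T cells, 0.487 FPKM for NK cells, 0.407 FPKM for dendritic cells and 0.161 FPKM for neutrophils or mast cells in any library. Library totals were 388218 and 373924 FPKM with IL-16 and 385907 and 391153 FPKM with PBS. The number of reads behind a value is unknown. The median absolute difference over tested rows, in log2(FPKM + 1), was 0.142 between the IL-16 libraries and 0.0864 between the PBS libraries, and IL-16 replicate 2 lay farther from the PBS libraries (0.220 and 0.214) than IL-16 replicate 1 did (0.150 and 0.145).

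Inpp4b, which encodes the 4-phosphatase INPP4B, was lower with IL-16 by more than any other of the 9 genes. Its level was 25.5 and 25.3 FPKM in the IL-16 libraries, against 42.5 and 42.7 FPKM in the PBS libraries. The groups did not overlap, and the IL-16 mean was 59.6% of the PBS mean (25.4 ± 0.0867 and 42.6 ± 0.153 FPKM; SD, n = 2 each). Differences are given as log2(FPKM + 1), a scale that makes changes of low genes look smaller, and that of Inpp4b was -0.72 with a 95% interval from -0.90 to -0.55 (limma, adjusted p = 0.0413 over all tested rows). This is the value by which the gene set was chosen, so it is a description and supports nothing further. Of the 11882 tested rows, 144 had a more negative difference. In bulk RNA, fewer cells that express a gene and less RNA per cell cannot be told apart.

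The replicates of Inpp4b lay close together. Its gap was 0.0067 on the log2 scale between the IL-16 libraries and 0.0071 between the PBS libraries. In limma the spread of each row is drawn toward that of rows at a similar level. The standard error of the Inpp4b difference was therefore 0.067, larger than either gap. Of the tested rows 2.57% had a smaller gap within IL-16 and 4.60% a smaller gap within PBS. The call was nevertheless lost when a PBS library was left out (adjusted p = 0.245 without replicate 1 and 0.224 without replicate 2, in limma fits where the lone PBS library is assumed to vary like the IL-16 pair), with no filter on low values (0.148) and with the replicate number as a block (0.0546). The size of the difference ran from -0.74 to -0.65 over 12 alternative settings. The replicate block, the filters and the summing of copy rows could not move it, since Inpp4b has no copy row. Leaving out a library could move it little, since its replicates lay so close. The narrow range is therefore no separate support for the difference.

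**Figure D1:**
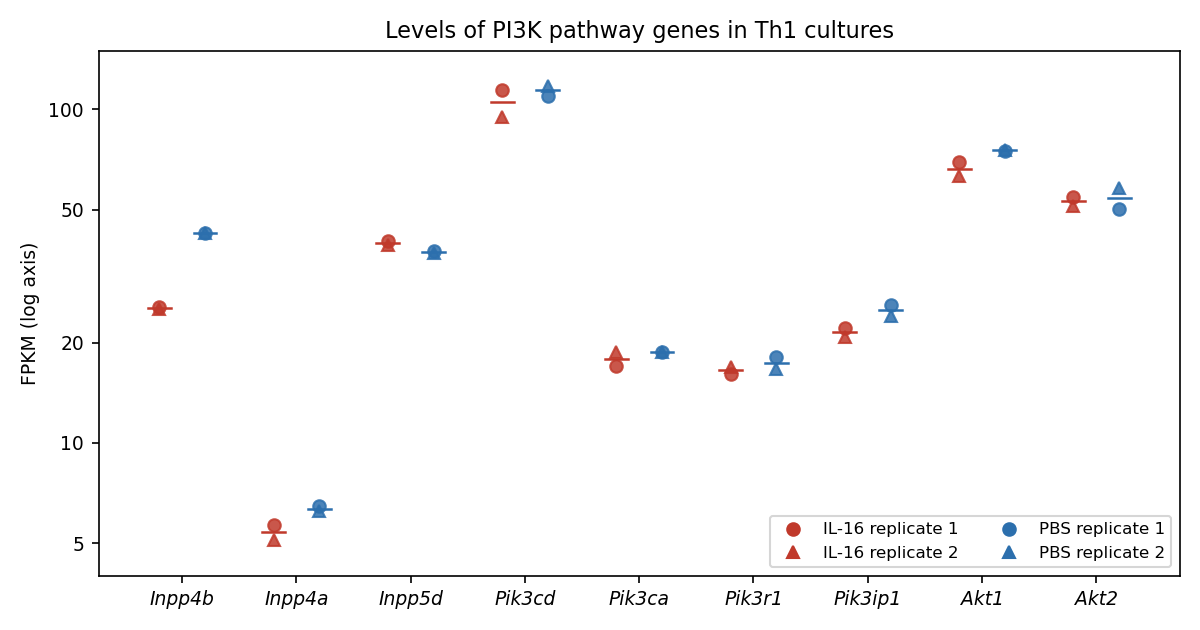
Level of each of the 9 genes in FPKM on a log axis, with IL-16 libraries (red) left of PBS libraries (blue); circles are replicate 1, triangles replicate 2, and bars the group means. Inpp4b lies at 25.5 and 25.3 FPKM with IL-16 and at 42.5 and 42.7 FPKM with PBS, while the IL-16 means of the other 8 genes lie between 84.8% and 106% of the PBS means.

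Inpp4a, which encodes the other 4-phosphatase of the family, was the least abundant of the 9 genes. It stood at 5.68 and 5.10 FPKM with IL-16 and at 6.47 and 6.23 FPKM with PBS. Both IL-16 values lay below both PBS values, but the difference of -0.20 had an interval from -0.47 to 0.059. Within each library Inpp4b held 81.8% and 83.3% of the summed Inpp4a and Inpp4b FPKM with IL-16 and 86.8% and 87.3% with PBS, a quantity that does not depend on the scaling between libraries. The sum over both genes was 31.1 and 30.4 FPKM with IL-16 and 49.0 FPKM in each PBS library. The share and the sum both contain the Inpp4b value by which the genes were chosen, so they are no separate support. With 2 libraries a group the smallest two-sided p of an exact permutation test is 0.333, so none was run on these shares.

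The start-site regions of the paralogous pair are shown because Inpp4b and Inpp4a do the same chemistry and stood 4.49-fold to 6.86-fold apart in level across the 4 libraries (Inpp4b over Inpp4a, FPKM). The sequences are the 250 bases before a RefSeq start in GRCm38.p6, both on the plus strand, and capitals mark matches to any of 6 motifs searched on both strands. The Inpp4b window is chr8:81342312-81342561 and the Inpp4a window, the first of 3 listed starts, is chr1:37299588-37299837.
Inpp4b: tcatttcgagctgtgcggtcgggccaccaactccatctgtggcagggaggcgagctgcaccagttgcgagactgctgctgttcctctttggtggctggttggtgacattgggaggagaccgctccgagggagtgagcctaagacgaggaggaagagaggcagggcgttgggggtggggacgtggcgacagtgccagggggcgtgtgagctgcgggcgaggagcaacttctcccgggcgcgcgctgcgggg
Inpp4a: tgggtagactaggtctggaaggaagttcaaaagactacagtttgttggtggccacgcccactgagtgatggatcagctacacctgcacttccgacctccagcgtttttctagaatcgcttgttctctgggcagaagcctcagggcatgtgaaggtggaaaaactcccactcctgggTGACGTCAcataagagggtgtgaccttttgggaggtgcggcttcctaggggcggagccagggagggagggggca
The Inpp4b window held 19 CpG dinucleotides at 66.0% G and C, and the Inpp4a window shown held 7 at 55.6%. The medians over 32851 promoter windows were 6 and 52.4%. Listed Inpp4a windows 2 and 3 held 16 at 63.6% and 5 at 54.4%, so the contrast within the pair depends on the start shown. The Inpp4a window shown matched the cAMP response element TGACGTCA, which 1.55% of all windows hold. The Inpp4b window matched none of the motifs, which says only that these letters are not in it.

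The other motifs were FOXO (GTAAACA, 3.17% of all windows), T-box (AGGTGTGA, 1.12%), the STAT element TTCNNNGAA (7.02%), the interferon-stimulated response element core (2.98%) and ETS (CCGGAAGT, 2.88%). All 9 genes matched the promoter table, with 18 windows between them. A FOXO match occurred in 1 window of Akt1, a STAT match in 1 window of Akt2 and an ETS match in the window of Pik3ca, and no window of the 9 genes matched the T-box or interferon motif. The matches describe letters and do not show binding.

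Inpp5d, which encodes the 5-phosphatase SHIP-1 that supplies the substrate of the INPP4 enzymes, was the gene of the 9 whose difference was above 0 with all 4 libraries. It measured 40.4 and 39.1 FPKM with IL-16 and 37.7 and 37.0 FPKM with PBS. The groups did not overlap, and the difference was 0.088 with an interval from -0.085 to 0.26. Inpp4b therefore stood below Inpp5d in both IL-16 libraries and above it in both PBS libraries. The Inpp4b to Inpp5d ratio was 0.631 and 0.649 with IL-16 and 1.13 and 1.16 with PBS. This ratio too contains the Inpp4b value by which the genes were chosen.

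Pik3cd, which encodes the delta catalytic subunit, was the most abundant of the 9 genes. Its main row held 114 and 95.1 FPKM with IL-16 and 109.8 and 118 FPKM with PBS. The IL-16 libraries spanned more than the distance between the group means, and the groups overlapped (difference -0.13, interval -0.40 to 0.15). The table has a second row with this symbol and a number suffix, read here as a copy row of the gene. It held 84.0 and 83.5 FPKM with IL-16 and 100.1 and 89.8 FPKM with PBS. Reads can be split between such rows. How the rows were made is unknown, so the level of either and the sum are uncertain. Summed over both rows the level was 198 and 179 FPKM with IL-16 and 209.9 and 208 FPKM with PBS (difference -0.15, interval -0.35 to 0.054).

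Pik3ca, which encodes the widely expressed alpha catalytic subunit, was far lower. It was 17.0 and 18.8 FPKM with IL-16 and 18.7 and 18.8 FPKM with PBS, and the groups overlapped (difference -0.060, interval -0.27 to 0.15). The delta subunit dominated the class IA catalytic transcripts in both groups: of the summed FPKM of Pik3ca, Pik3cb and the main Pik3cd row, Pik3cd held 85.1% and 81.6% with IL-16 and 83.9% and 84.6% with PBS. Pik3cb, the beta subunit gene, held 2.20% and 2.21% with IL-16 and 1.82% and 1.93% with PBS.

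Pik3r1 encodes the regulatory subunit p85-alpha and shorter forms that bind and stabilise the catalytic subunits. It was 16.1 and 16.9 FPKM with IL-16 and 18.1 and 16.7 FPKM with PBS, with overlapping groups (difference -0.071, interval -0.28 to 0.14). The main Pik3cd row exceeded it by 7.09-fold and 5.63-fold with IL-16 and by 6.07-fold and 7.06-fold with PBS.

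Pik3ip1 encodes a transmembrane inhibitor of PI3K that T cells lose from their surface on activation. Its level was 22.1 and 20.8 FPKM with IL-16 and 25.9 and 24.0 FPKM with PBS. Both IL-16 values lay below both PBS values, and the IL-16 mean was 85.9% of the PBS mean. The difference of -0.21 had an interval from -0.42 to -0.0017. It did not pass over all rows (limma, adjusted p = 0.211), and its unadjusted p of 0.0487 lay under 0.05, as did that of 23.4% of tested rows.

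Akt1 and Akt2 encode serine-threonine kinases recruited by the lipids that PI3K makes. Akt1 was 69.7 and 63.0 FPKM with IL-16 and 75.3 and 75.7 FPKM with PBS, without overlap (difference -0.19, interval -0.38 to 0.013). It passed only when IL-16 replicate 1 was left out (difference -0.26, limma adjusted p = 0.0399), a setting in which 2065 rows passed and the lone IL-16 library is assumed to vary like the PBS pair. The gap of Akt1 was 0.0077 between the PBS libraries and 0.14 between the IL-16 libraries. Akt2 was 54.6 and 51.3 FPKM with IL-16 and 50.3 and 58.3 FPKM with PBS, and the IL-16 values lay between the PBS values (difference -0.031, interval -0.27 to 0.21). Akt1 held 56.1% and 55.1% of the summed FPKM of Akt1 and Akt2 with IL-16 and 60.0% and 56.5% with PBS.

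**Figure D2:**
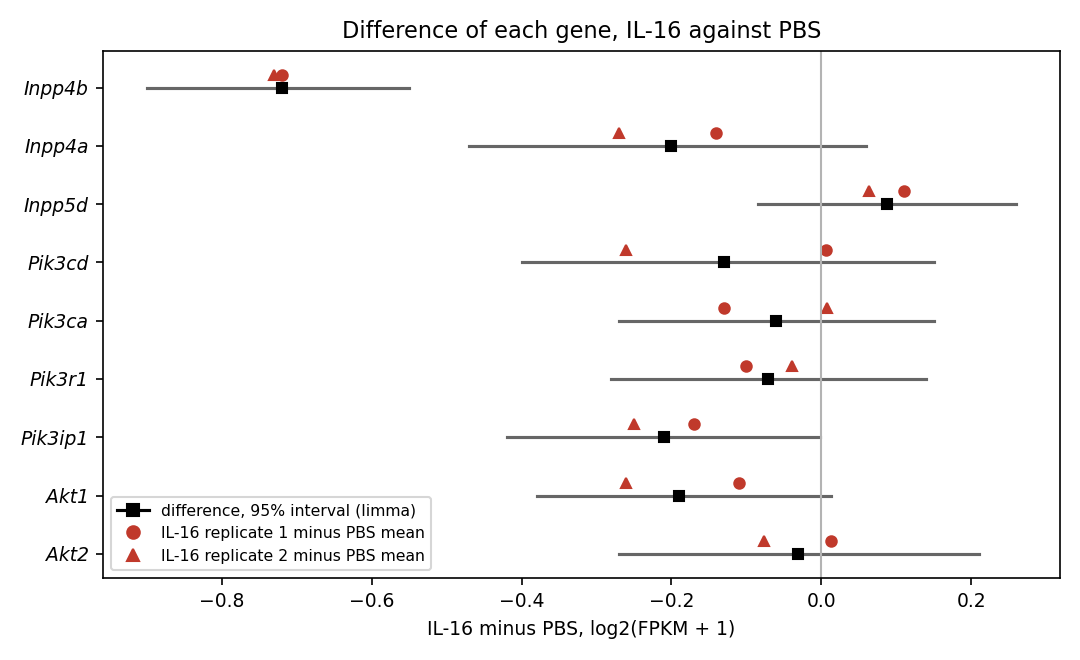
IL-16 minus PBS on the log2(FPKM + 1) scale for the 9 genes; black squares and lines are the limma difference and its 95% interval, red circles and triangles are IL-16 replicates 1 and 2 minus the PBS mean. The interval of Inpp4b runs from -0.90 to -0.55 and that of Pik3ip1 ends at -0.0017, while the other 7 include 0.

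Of the 9 genes 1 was past an adjusted p of 0.05, Inpp4b, against 0.219% of tested rows called in either direction and 0.0589% called lower. Since the genes were chosen with this comparison known, nothing is read from that share. The groups did not overlap for 5 of the 9 genes, against 58.9% of tested rows. The median difference of the 9 genes was -0.13 and 8 of them were below 0, against a median of -0.045 and 57.8% of rows below 0 over the whole table. Both values for the 9 genes include Inpp4b, whose fall was known when they were chosen. No shift of the pathway is read from them. After median-of-ratios scaling, which moved the median of all rows to -0.0037, 7 of the 9 were below 0.

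In descending order of mean FPKM with IL-16 the genes were Pik3cd, Akt1, Akt2, Inpp5d, Inpp4b, Pik3ip1, Pik3ca, Pik3r1 and Inpp4a. With PBS the order was the same except that Inpp4b (42.6 FPKM) stood above Inpp5d (37.3 FPKM). The values of neighbours in each of these orders did not overlap within that group. Over all 4 libraries the ranges overlapped between Inpp5d and Inpp4b, between Inpp4b and Pik3ip1, and between Pik3ca and Pik3r1. Among tested rows the mean level of these genes ran from the 33.5th percentile for Inpp4a to the 95.7th for Pik3cd, with Inpp4b at the 82.3rd.

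The wider network was read from 8 lists of 124 other genes, of which 114 were tested. None passed over all rows in either direction in limma, against 0.219% of tested rows. Without adjustment, 8 genes were higher and 14 lower at p under 0.05, together 19.3% of the 114, against 23.4% of all tested rows. These 22 genes became 5 and 7 when PBS replicate 1 or 2 was left out, and 37 and 16 when IL-16 replicate 1 or 2 was, while the 2785 of all rows became 1179, 1360, 4334 and 2378 in that order. The median difference of the 114 genes was -0.068 with 62.3% below 0, against -0.045 and 57.8% over the whole table. The values below are of genes among the 3 with the smallest p in each list and describe differences that did not pass.

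Among 9 other tested PI3K subunit and adaptor genes the median difference was 0.090 and 6 were above 0. Pik3r2, which encodes the regulatory subunit p85-beta, was 4.99 and 4.56 FPKM with IL-16 and 3.37 and 3.62 FPKM with PBS (difference 0.36, limma adjusted p = 0.159). Its copy row went the other way, with 6.09 and 4.66 FPKM with IL-16 and 6.49 and 6.18 FPKM with PBS, and the difference of the sum was 0.037. Pik3r5, a regulatory subunit gene of PI3K-gamma, had a difference of 0.18, and Pik3ap1, which encodes the adaptor BCAP, 0.16.

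Other phosphoinositide phosphatase genes numbered 21 tested, with a median difference of -0.10 and 13 below 0. Synj2, which encodes the 5-phosphatase synaptojanin 2, was 5.57 and 5.16 FPKM with IL-16 and 7.64 and 7.04 FPKM with PBS (difference -0.39, limma adjusted p = 0.134). Sacm1l, the gene of a phosphatidylinositol 4-phosphate phosphatase of the endoplasmic reticulum, had a difference of -0.27, and the 5-phosphatase gene Inpp5b one of 0.19. Among 11 phosphoinositide kinase genes the median was -0.019. Pi4k2a, a phosphatidylinositol 4-kinase gene, was 11.1 and 10.5 FPKM with IL-16 and 13.6 and 13.4 FPKM with PBS (difference -0.30, limma adjusted p = 0.138), while Pi4ka differed by -0.17 and Pip5k1c by 0.21.

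The list of Akt, PDK1, SGK and mTOR complex genes had 20 tested genes and a median difference of -0.075. Sgk1 encodes a kinase related to Akt that PI3K signalling also activates. It was 7.16 and 6.22 FPKM with IL-16 and 12.1 and 10.7 FPKM with PBS, without overlap (difference -0.69, interval -0.97 to -0.41, limma adjusted p = 0.0889). Trib1, a pseudokinase gene, differed by 0.44 and Pdpk1, which encodes the Akt-activating kinase PDK1, by -0.25. Among 9 genes of Akt substrates the median was 0.10, with Tbc1d4, a regulator of glucose transporter traffic, at -0.47, Gsk3a at 0.21 and Foxo3 at 0.15. Tbc1d4 exceeded 1 FPKM only with PBS, so it entered the test through that group.

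Lipid-binding effector genes (17 tested) had a median difference of -0.064. The GTPase-activating protein gene Rasa3 was 29.7 and 31.9 FPKM with IL-16 and 38.0 and 36.6 FPKM with PBS (difference -0.27, limma adjusted p = 0.143). The adaptor gene Dapp1 differed by -0.20 and the kinase gene Tec by -0.23. Upstream receptor and docking protein genes (14 tested) had a median of -0.087, with 3 above 0 and 11 below 0. Their differences ran from -0.43 to 0.48. Trat1, a T cell adaptor that binds the regulatory subunit, was 1.28 and 1.51 FPKM with IL-16 and 2.29 and 2.16 FPKM with PBS (difference -0.43, limma adjusted p = 0.159). Insr, the insulin receptor gene, and Igf1r, which encodes the insulin-like growth factor receptor, each differed by -0.27.

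The 13 tested FOXO1 target genes had a median difference of -0.081, with 5 above 0 and 8 below 0, and 3 were higher and 3 lower at an unadjusted p under 0.05. Klf2, a quiescence factor gene, was 10.3 and 9.46 FPKM with IL-16 and 16.3 and 17.4 FPKM with PBS (difference -0.72, interval -0.94 to -0.49, limma adjusted p = 0.0656). It passed when copy rows of all genes were summed (limma adjusted p = 0.0334). Without IL-16 replicate 1 the difference of Klf2 was -0.77. Tcf7, which encodes the T cell factor TCF-1, was 49.4 and 87.5 FPKM with IL-16 and 119 and 122 FPKM with PBS. The IL-16 libraries of Tcf7 were far apart, and the difference of -0.86 had an interval from -1.52 to -0.21 (limma adjusted p = 0.153). Leaving out IL-16 replicate 1 gave -0.46, and leaving out IL-16 replicate 2 gave -1.27. In those fits the row's own spread comes from the PBS pair alone, and is then drawn toward that of rows at a similar level. For Tcf7 the gap on the log2 scale was 0.026 between the PBS libraries and 0.81 between the IL-16 libraries. No p is therefore given for those fits.

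**Figure D3:**
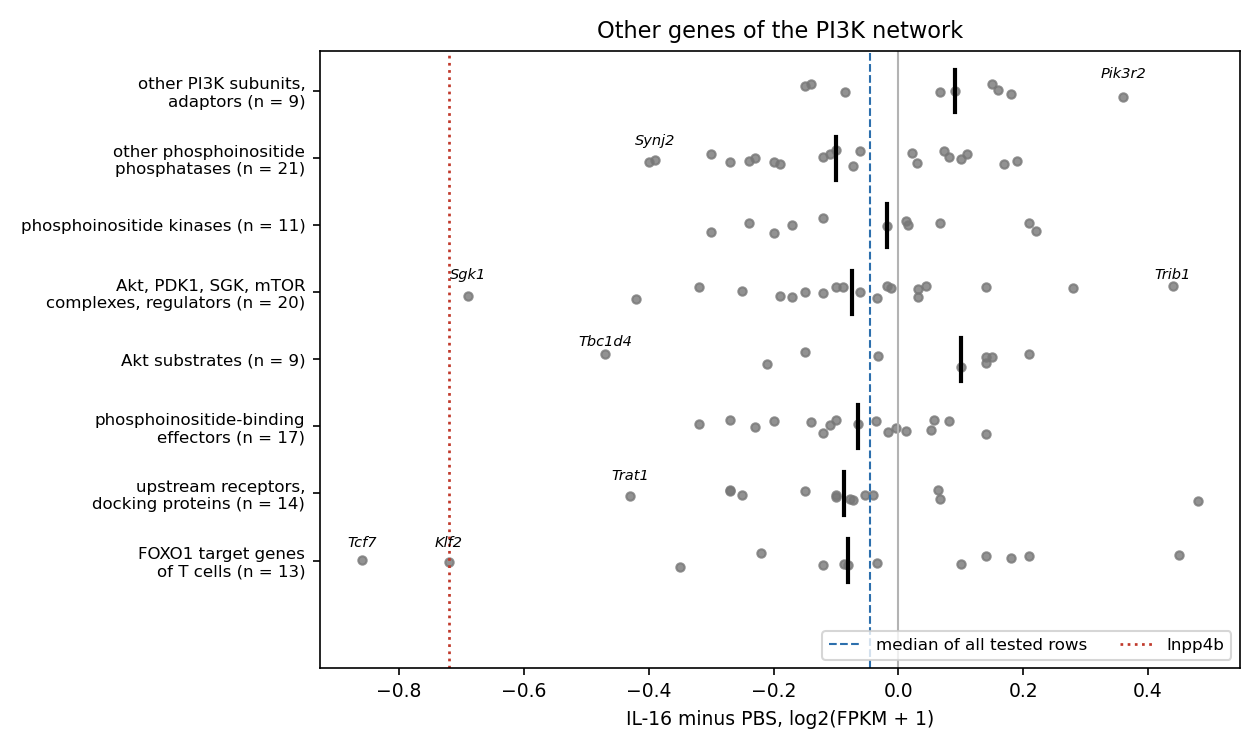
IL-16 minus PBS on the log2(FPKM + 1) scale for 114 tested genes in 8 lists; each point is a gene (jittered vertically), black bars are list medians, the blue dashed line is the median of all tested rows and the red dotted line is Inpp4b. List medians lie between -0.10 and 0.10, and Sgk1, Klf2 and Tcf7 are the genes nearest to or beyond the difference of Inpp4b.

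The rows most like Inpp4b over the 4 libraries were found by the root mean square difference of log2(FPKM + 1) after each of 10217 rows with a gene symbol was centred on its own mean. They were Ifngr2 (0.0231), which encodes a chain of the interferon-gamma receptor, Gpr34 (0.0263), a G protein-coupled receptor gene, Gzme (0.0291), a granzyme gene, Ndufc1 (0.0422), a respiratory complex I subunit gene, and Pde3b (0.0448), a cyclic nucleotide phosphodiesterase gene. Ifngr2 was 8.14 and 8.49 FPKM with IL-16 and 14.2 FPKM in both PBS libraries. Pde3b was 23.6 and 21.7 FPKM with IL-16 and 39.4 and 38.8 FPKM with PBS. None of these 5 passed over all rows in limma, with adjusted p from 0.0514 for Pde3b to 0.101 for Gpr34. Gpr34 was 0.934 and 0.837 FPKM with IL-16 and 2.11 and 2.18 FPKM with PBS, so it exceeded 1 FPKM only with PBS. Its IL-16 mean was 41.3% of the PBS mean, against 59.6% for Inpp4b, so its likeness holds on the log2(FPKM + 1) scale only. Of the other 8 pathway genes, Pik3ip1 stood at a distance of 0.262 (rank 1997 of the 10217 rows), Inpp4a at 0.265 (rank 2074), Akt1 at 0.274 (rank 2343) and Inpp5d, the farthest, at 0.407 (rank 7146). The 4 libraries are shared by all rows, so this is a description.

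**Figure D4:**
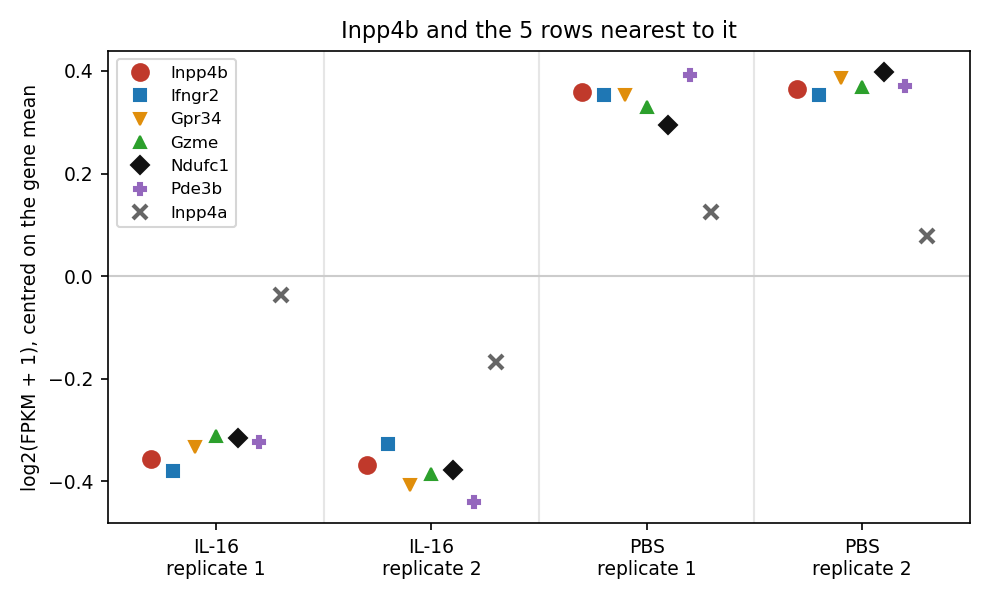
log2(FPKM + 1) centred on the gene's mean in each of the 4 libraries, for Inpp4b, the 5 rows nearest to it and its paralogue Inpp4a. The nearest rows lie within a root mean square distance of 0.0448 of Inpp4b, and Inpp4a at 0.265.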

How the data were processed

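Bulk RNA sequencing of 4 libraries was analysed, 2 of cells given IL-16 and 2 with PBS, grouped by sample title. The deposited table gives 1 value per row and library, taken as FPKM. The authors had computed these values before they deposited the table. The table names no unit, so FPKM rests on fractional values and unequal totals. The submitters' processing notes name HISAT2, fastp and featureCounts, and the build GRCm39, with no versions. Which tool gave the values is not stated there. Values were checked for steps of whole reads: for each pair of libraries, with 1443 to 1614 rows under 0.2 FPKM, no window of 0.5% held more than 1.49% of the ratios, so reads were not recovered and depth is unknown.

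Rows with at least 1 FPKM in at least 2 libraries were tested with limma 3.58.1 in R 4.3.3 (mean-variance trend, two-sided) on log2(FPKM + 1), with group as the term. Benjamini-Hochberg adjustment ran over the 11882 tested rows, at a threshold of 0.05. The fit was tested on simulated data, with changes larger than that of Inpp4b and the same spread in both groups. That test therefore does not bear on the calls made here. The 9 genes and the lists were chosen with earlier results of these data known. Named genes are the 9, the 3 with the smallest p per list, any past the threshold and the 5 rows most like Inpp4b; a few items are not reported here. Pik3cb was added after its values were seen, as were the motifs. A symbol with a number suffix was read as a copy row where its stem is also listed. Alternatives left out each library, used a replicate block, pseudocounts of 0.1 and 5, no or a stricter filter, 2 other scalings, or summed copy rows. Promoter sequences are from RefSeq (GRCm38.p6); the deposited table holds no coordinates.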

Additional observations from a re-analysis of the deposited data

How the results depend on the processing

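Among the 9 genes, Inpp4b passed in 8 of 12 alternatives. The count of the 9 that passed, 1 with all libraries, ran from 0 to 2 when a library was left out (the lone library is then assumed to vary like the other group), and was 0 with the replicate block and 0 with no filter on low values. The count over all tested rows, 26 with all libraries, ran from 9 to 2065 when a library was left out. It was 0 with no filter (3068 at an unadjusted p under 0.05), 53 with median-of-ratios scaling, 40 as TPM and 126 with copy rows summed. The count of other network genes, 0 with all libraries, ran from 0 to 10 when a library was left out (10 without IL-16 replicate 1, among them Ccng2, Dok1, Gsk3a, Klf2, Rheb, Sacm1l, Sgk1, Tcf7 and Trib3; 1, Tcf7, without IL-16 replicate 2), and was 1 (Klf2) with copy rows summed. The cause of these moves was not tested. Sign changes occurred in genes that did not pass: when a library was left out, Pik3cd ran from -0.26 to 0.0057, Pik3ca from -0.13 to 0.0078 and Akt2 from -0.14 to 0.073, and Akt2 was 0.015 with median-of-ratios scaling. The differences of Inpp4b, Inpp4a, Inpp5d, Pik3r1, Pik3ip1 and Akt1 kept their sign in all 12 alternatives. For these genes the replicate block, the filters and the summing of copy rows could not change the difference. Same-numbered libraries did not deviate together (Pearson's r of 0.00665 over tested rows, which are not independent). A single correlation cannot settle whether they shared an animal, which the labels do not state, so pairing remains unknown. The replicate block gave a limma adjusted p of 0.0546 for Inpp4b. With 2 libraries a group and no read counts, counting error could not be separated from the spread between libraries.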
